A study of Danio rerio with 2 samples.

Results

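Cluster 12 is 1 of 15 numbered clusters in the table of mean expression that the authors deposited for zebrafish trunk cells, and it was taken as notochord and cartilage-type cells after its markers col9a1b, col2a1a and cnmd. Its members were chosen by that cluster number alone, from the mutant and the wildtype column of the table. The number of cells behind each column was read from the values, which all become whole numbers at 48 cells for the mutant column and 46 cells for the wildtype column. These 94 cells were a small minority of the 12352 cells in the table, and the other 14 clusters held 12258 cells.

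The notochord is the rod of mesoderm under the neural tube of vertebrate embryos. In zebrafish it has an inner core of large vacuolated cells and an outer epithelium of sheath cells, which secrete a thick coat of collagens and proteoglycans that takes up the pressure of the vacuoles. Its matrix shares most of its genes with cartilage, and it is a source of Hedgehog signals that pattern the neural tube, the muscle and, through muscle, the vessels next to it.

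Both libraries came from trunks dissected at 27 hours post fertilization, from which cells were sorted by the red fluorescence of a membrane mCherry driven by kdrl, a gene of endothelial cells, and read by droplet-based sequencing of transcript 3′ ends. The mutant fish were Tg(miR-223:KalTA4)ya363 with the miR-223(ya303) mutation, and the wildtype fish were Tg(miR-223:KalTA4)ya362. Both lines also carried the Tg(5xUAS:eGFP)nkuasgfp1a reporter, which KalTA4 drives, and the Tg(kdrl:hras-mCherry)s896 reporter of the sort. There was 1 library per genotype and therefore no replicate, so every mutant and wildtype value below compares 2 libraries, no p-value is given, and genotype cannot be told apart from the clutch, the sort and the making of each library. The microRNA miR-223 itself was not analysed here, so the genotypes are as labelled.

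The mutant column of cluster 12 summed to 362159 counts (7545 per cell) and the wildtype column to 325949 counts (7086 per cell). Levels are given as CPM, the counts of a gene divided by all counts of its column and scaled to a fixed total. The table names no barcodes, so single cells were found again in the deposited matrices as the barcodes with fewer than 2500 genes and under 5% mitochondrial UMIs (unique molecular identifiers, 1 per captured transcript) whose profile was most like cluster 12. This limit, set after the data were seen, left 6126 mutant and 6232 wildtype barcodes, against 6125 and 6227 cells in the table, and it found 48 mutant and 45 wildtype cells of cluster 12. Deep cells weighed less in the authors' columns, and shallow cells more, than their raw UMIs would give. The 10 wildtype cells under 2000 UMIs had a median weight of 2.98 and the 17 of 10000 or more UMIs one of 0.776, so raw UMIs of the rebuilt cells (411959 in mutant and 347838 in wildtype cells) are given beside the table's values. Of the rebuilt cells, 2 mutant and 9 wildtype cells had fewer than 500 genes, and the median cell had 9481 UMIs in the mutant and 8381 in the wildtype library. The libraries shared 98 barcodes, 1 of them a mutant cell of this cluster.

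The cluster was rare in both libraries. Its share was 0.784% of mutant cells (48 of 6125, exact Clopper-Pearson 95% interval 0.578 to 1.04%) and 0.739% of wildtype cells (46 of 6227, 0.541 to 0.984%). Mutant minus wildtype came to 0.045 points, and the interval of that difference by Newcombe's method ran between -0.266 and 0.359, so none was detectable with so few cells. The intervals of shares and raw folds given here cover counting error only and treat cells or UMIs as independent.

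The leading genes were those of notochord sheath and cartilage matrix. Of 17822 features in the table, 297 were at least 4-fold above the pooled other 14 clusters in both libraries, which is 1.67% of them, after 5 CPM were added to each level. The cluster was drawn from its own genes, so this is a description and not a test. With the highest of the other clusters in place of their pool, 88 features passed.

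The transcript si:ch73-23l24.1 took the largest excess, with 42410 CPM in mutant and 42145 CPM in wildtype cells of the cluster, against 7.74 and 5.00 CPM in the other clusters of the same libraries. Its highest level in any other cluster was 17.6 CPM, in cluster 7. The files give this transcript no name or role, and it stood almost wholly in this cluster in both genotypes.

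The fibril collagens also had a large excess. Col2a1a, the alpha chain of collagen II, had 18823 CPM in mutant and 19012 CPM in wildtype cells, and col9a1b, a chain of collagen IX that decorates those fibrils, had 14022 and 15460 CPM. The further collagen IX chains col9a2 and col9a3, the collagen XI chains col11a1a and col11a2, and a second collagen II gene, col2a1b, were all among the 25 leading genes. Col11a1a, for one, had 9062 CPM in mutant and 8053 CPM in wildtype cells. Other clusters are named here by the marker list that was highest in them. Cluster 9, highest in neural markers, came nearest for most of these collagens, with up to 889 CPM of col2a1a, and cluster 13, highest in epidermal markers, came nearest for col11a1a (636 CPM) and col2a1b (315 CPM).

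Matrix genes other than collagens followed the same pattern. Cnmd, the glycoprotein chondromodulin that hinders vessel growth in cartilage, had 8527 CPM in mutant and 9004 CPM in wildtype cells and at most 106 CPM elsewhere. Cmn, which encodes calymmin, a protein of the zebrafish notochord sheath, had 5611 and 5900 CPM against at most 16.6 CPM. The small proteoglycans epyc (3521 CPM in mutant, 4087 CPM in wildtype cells) and snorc (4222 and 3832 CPM) reached at most 6.01 and 2.68 CPM in any other cluster. Matn4, a matrix adaptor protein, the crosslinking enzymes tgm2l and loxl1, and ucmab, a matrix protein of cartilage, completed this group.

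Regulators of the notochord lay among the same 25 genes. Tbxta, the zebrafish Brachyury gene that notochord formation needs, had 1383 CPM in mutant and 1332 CPM in wildtype cells, against at most 23.0 CPM elsewhere. Shha, the Sonic hedgehog ligand, had 370 and 362 CPM, and the next highest level was 42.3 CPM in cluster 9. The remaining leading genes were paqr4b, golim4b, the keratin gene krt5, the synuclein gene sncga and a few transcripts known only by clone names, such as zgc:113232 (5012 CPM in mutant, 6041 CPM in wildtype cells) and si:dkey-12l12.1 (776 and 417 CPM).

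**Figure D1:**
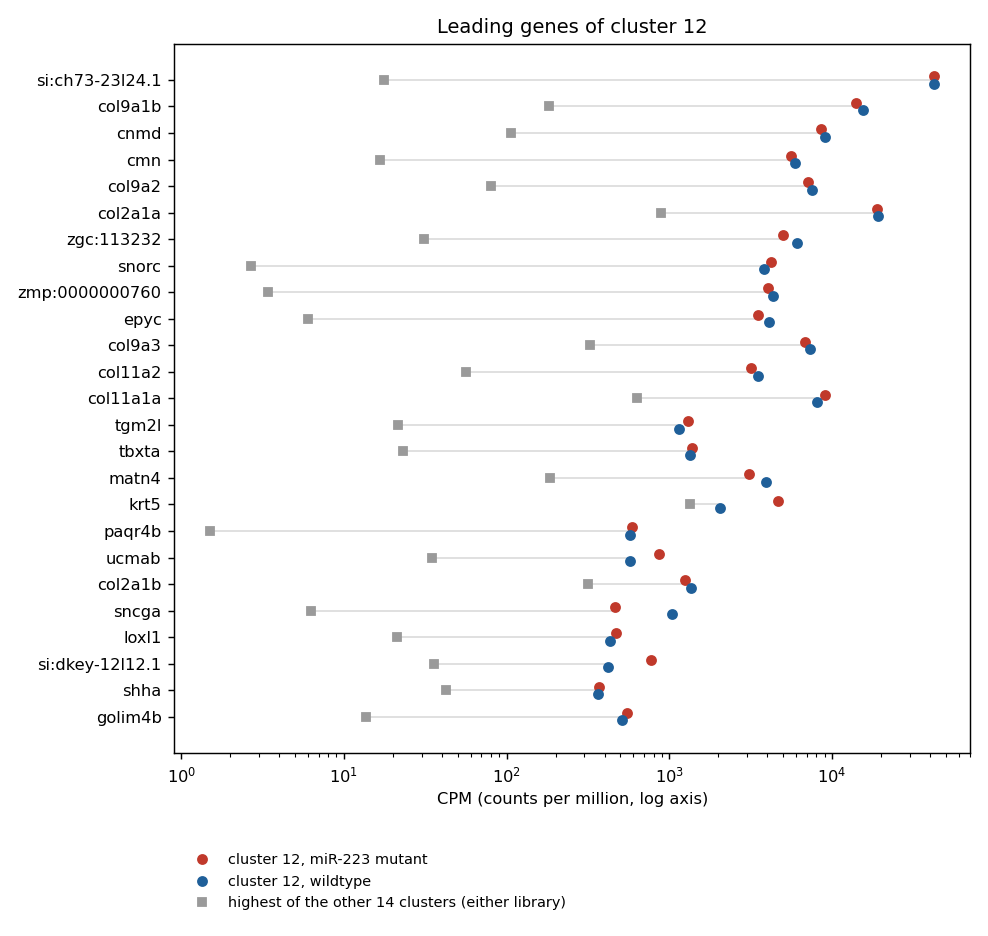
Levels of the 25 leading genes in cluster 12 of the miR-223 mutant library (red) and the wildtype library (blue) and the highest level in any other cluster of either library (grey squares), in CPM on a log axis. The red and blue points lie right of the grey squares, least so for krt5 (4617 in mutant and 2056 in wildtype cells, against 1332 in cluster 13 of the wildtype library), and they part visibly for krt5 and sncga (461 and 1040).

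Lists of genes by role showed which notochord programs the cells carried. A list member was counted when it was at least 2-fold above the other clusters in both libraries, which holds for 3.67% of all features. Of all 17822 features, 7488 were at 0 in both columns of cluster 12, and counts of list members at 0 are to be read against that share. The lists were drawn up with earlier results of these data known.

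Of the sheath and notochord matrix list, 30 of 51 members passed and 4 were at least 2-fold lower (7.8% of all features are). Besides the genes above, the lysyl oxidase loxl3b had 580 CPM in mutant and 393 CPM in wildtype cells, and the cartilage protein chad had 279 and 245 CPM. Acana, the core protein aggrecan, was low, at 8 and 6 counts, yet it was listed at 0 in all 14 other clusters. Of the notochord transcription factors, 12 of 19 passed. Foxa1, foxa2 and foxa3, of the forkhead family that acts in midline cells, had 268, 49.7 and 33.1 CPM in mutant and 221, 46.0 and 27.6 CPM in wildtype cells. Sox9b, sox5 and sox6, which switch on collagen II in cartilage, had 52.5, 44.2 and 85.6 CPM in mutant and 92.0, 21.5 and 39.9 CPM in wildtype cells. Noto, a homeobox gene of early notochord, had 0 and 1 counts.

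The machinery that folds and exports collagen was above the pooled other clusters as a group. Of 68 members of the collagen folding and secretion list, 39 passed and 0 were 2-fold lower. Summed over the list, cluster 12 held 27985 CPM in mutant and 23593 CPM in wildtype cells. The highest sum elsewhere was 12091 CPM, in cluster 7, highest in mesenchyme markers. The median lead over the highest other cluster was much smaller than over the pool and is given at the end. The collagen chaperone serpinh1b had 1538 CPM in mutant and 1482 CPM in wildtype cells, against 117 and 136 CPM in the other clusters. The prolyl isomerase fkbp9 had 2237 and 1700 CPM, against 106 and 91.8 CPM. The lysyl hydroxylase plod3 had 1102 and 684 CPM, against 63.6 and 66.5 CPM. Hspa5, a general chaperone of the endoplasmic reticulum, was nearer to the level elsewhere, with 376 CPM in mutant and 279 CPM in wildtype cells, against 299.7 and 363 CPM in the other clusters. Ppib, a prolyl isomerase, and the translocon gene ssr3 were further abundant members, at 3797 and 1850 CPM in mutant and 3402 and 1672 CPM in wildtype cells. Of the N-glycan synthesis list, 7 of 47 members passed, among them the cargo lectin lman1 (547 CPM in mutant, 454 CPM in wildtype cells) and ost4, a subunit of the enzyme that attaches the glycan (503 and 436 CPM). Dad1 and ostc, further subunits of that enzyme, had 1187 and 627 CPM in mutant and 1304 and 571 CPM in wildtype cells.

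Genes of vacuolated cells and of caveolae, the membrane pits that protect those cells, were divided, and 8 of 30 passed while 8 were 2-fold lower. Cav2 and cav1, which encode the coats of the pits, had 853 and 323 CPM in mutant and 887 and 255 CPM in wildtype cells, and the other clusters held 15.6 and 41.6 CPM in the mutant and 21.5 and 31.9 CPM in the wildtype library. The epithelial keratins krt18a.1 and krt8 had 15924 and 8019 CPM in mutant and 16165 and 8234 CPM in wildtype cells, also above every other cluster. The proton pump subunit atp6v0ca was lower than elsewhere, at 224 and 178 CPM against 361 and 371 CPM. Ngs, a gene of the vacuolated cell surface, had 12 and 4 counts, and cav3 had 16 and 22 counts.

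Of the Hedgehog and other midline signals, 6 of 45 passed and 20 were at 0 in both columns, close to the share over all features. Shha was the Hedgehog ligand with appreciable counts, and the rebuilt cells held 1 and 2 UMIs of shhb and 2 and 0 of ihhb. The Noggin genes nog1, nog2 and nog3, which bind and block BMP ligands, had 60.7, 88.4 and 74.6 CPM in mutant and 67.5, 95.1 and 43.0 CPM in wildtype cells. Apln, a peptide that draws endothelial cells, had 69.0 and 64.4 CPM, close to the highest level elsewhere (67.8 CPM in cluster 3, highest in endothelial markers).

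The label was then held against the lineages it could cover. The notochord part of it rests on tbxta, shha, the forkhead genes, cmn and the sheath collagens. The cartilage part rests on matrix genes such as snorc, ucmab, epyc and matn4. Of the cartilage and sclerotome list, 8 of 31 members passed and 10 were at 0 in both columns, a smaller share than over all features. Pax1a, pax1b, pax9 and twist1b, which mark the sclerotome, and barx1, runx3, sp7, runx2b and col10a1a, of later skeletal cells, had 0 UMIs in all rebuilt cells of either library. A count of 0 allows up to 7.28 CPM in mutant and 8.62 CPM in wildtype cells (3 counts of the total). Twist1b reached 524 CPM and pax9 reached 85.6 CPM in cluster 7, highest in mesenchyme markers. Sox9a, a factor of cartilage, had 1 and 2 UMIs, nkx3.2, a factor of sclerotome and jaw cartilage, had 5 and 1, and twist1a had 0 and 3. Cartilage matrix genes were thus high in these cells, while twist1b and pax9, markers of the sclerotome, from which trunk cartilage arises, were at 0. For the other genes at 0 no level elsewhere is given here. Their counts of 0 therefore cannot be read as an absence particular to this cluster.

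Floor plate and hypochord, which lie next to the notochord and share its genes, were checked in the same way. Of that list, 5 of 16 members passed, among them shha, foxa2 and ctgfa, a matricellular gene with 1088 CPM in mutant and 887 CPM in wildtype cells, and 10 were at 0 in both columns. Foxj1a, which drives the cilia of the floor plate, and the netrins ntn1a and ntn1b had 0 UMIs, while foxj1a reached 93.7 CPM in cluster 9.

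Markers of the sorted cells, of erythroid cells and of muscle were mostly lower than elsewhere, while those of other tissues were mixed. Of 15 endothelial markers 0 were 2-fold higher and 14 were 2-fold lower, with 6 and 4 counts of kdrl and 19 and 11 of cdh5 in the table and 2 and 2 and 8 and 0 raw UMIs in the rebuilt cells. The reporter mCherry-Hras, on which the sort was made, had 16 counts in mutant (44.2 CPM) and 6 in wildtype cells (18.4 CPM), against 176 and 119 CPM in the other clusters, and eGFP had 3 and 1 counts and GAL4 had 0 and 0. The 15 erythroid markers were all at least 2-fold lower than elsewhere. So were 13 of 17 muscle, 6 of 13 myeloid and 8 of 16 epidermal markers. Of the others, 3 of 16 mesenchyme, 2 of 15 neural and 0 of 7 pronephric markers were lower, where 7.8% of all features are. At least 2-fold higher were 0 of 17 muscle, 0 of 16 mesenchyme and 0 of 13 myeloid markers. So were 1 of 15 neural (fabp7a), 1 of 16 epidermal (krt5) and 1 of 7 pronephric markers (slc20a1a). With 3.67% of all features 2-fold higher, such counts in short lists are no result about those tissues. Fabp7a, a lipid-binding protein of radial glia, had 458 CPM in mutant and 663 CPM in wildtype cells, against at most 119 CPM elsewhere, while 10 of the 15 neural markers were at 0. Of the cell cycle list 0 of 30 passed, and of the heat shock and immediate early list 5 of 21 passed. Of a list of linker histones and genes that an earlier analysis of these data named for endothelial cells, 0 of 11 passed.

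**Figure D2:**
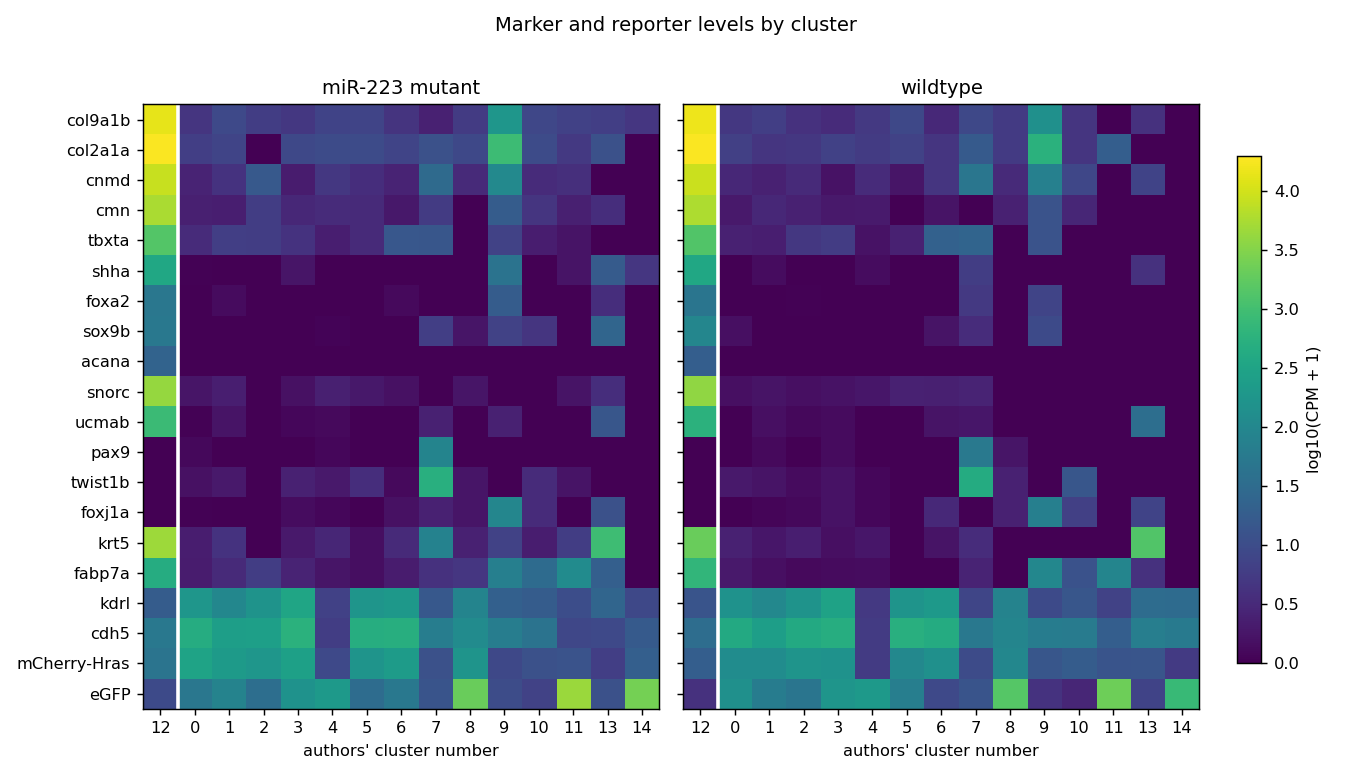
Levels as log10(CPM + 1) of notochord, cartilage, sclerotome, floor plate, epidermal, neural and endothelial genes and of the reporters in each cluster, with the miR-223 mutant library on the left and the wildtype library on the right, and cluster 12 first. Cluster 12 has the brightest cells for col9a1b to ucmab and for krt5 and fabp7a, and dark cells for pax9, twist1b and foxj1a, which are seen in clusters 7 and 9.

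The second comparison was of mutant with wildtype cells inside the cluster, which asks how miR-223 mutant and wildtype notochord cells differ. Most genes had like levels in both libraries. Counting features that averaged 50 CPM or more over both columns, 1619 in all, 40 were at least 2-fold higher in mutant cells (2.47%) and 28 were at least 2-fold lower (1.73%), so that 58.8% of the features past 2-fold were higher. With TMM size factors, a scaling that sets the bulk of genes equal, this turned to 30 higher and 39 lower (43.5% higher), and in all kept matrix cells most like cluster 12 to 24 higher and 30 lower (44.4% higher). The median log2 ratio of mutant over wildtype was 0.06 over these features (-0.05 with TMM), and ratios below are to be read against it.

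The median of the sheath and matrix genes lay slightly toward the wildtype. Over the 26 members of at least 50 CPM the median log2 ratio was -0.08 (-0.19 with TMM), and 9 were above 0 (34.6%, against 56.1% of all features). An interval of that median from the ordered ratios, which treats the members as independent, ran from -0.21 to 0.17. It held both 0 and the median of 0.06 over all features. In raw UMIs 14 of the 26 had an interval below 1 and 4 had one above. How many of all features had such an interval was not counted, and abundant genes have narrow intervals. These counts are therefore no result about the list. The log2 ratio was 0.01 for si:ch73-23l24.1, -0.01 for col2a1a, -0.14 for col9a1b, -0.08 for cnmd, 0.05 for tbxta and 0.03 for shha. In raw UMIs the 3 collagen IX chains, col2a1a, cnmd and cmn were each slightly lower in mutant cells, and for these 6 genes the fold lay between 0.866 (col9a1b, 0.834 to 0.898) and 0.926 (cnmd, 0.883 to 0.971). Epyc, col11a2 and col2a1b were lower too, with folds of 0.849, 0.852 and 0.865. Snorc, col11a1a, tgm2l and loxl1 had folds of 1.06, 1.04, 1.09 and 1.07, and their intervals held 1. Tbxta had a fold of 0.987 (0.875 to 1.11) and shha one of 0.961 (0.759 to 1.22), so both intervals held 1.

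A few matrix genes departed further. Matn3a, a matrilin, had 77.3 CPM in mutant and 163 CPM in wildtype cells, with 29 and 57 raw UMIs (fold 0.430, 0.265 to 0.683), and it was the 1 member of the list past 2-fold. Col8a1a, a chain of a network collagen, had 149 and 233 CPM (log2 -0.63), and matn4 had 3065 and 3915 CPM (log2 -0.35). On the other side hapln1a, a link protein of the hyaluronan matrix, had 323 and 215 CPM (log2 0.58), and loxl3b had a log2 ratio of 0.56. Ucmab had 862 CPM in mutant and 574 CPM in wildtype cells, or 368 and 219 raw UMIs (fold 1.42, 1.2 to 1.69).

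Krt5 and sncga stood out among the leading genes. Krt5, a keratin of the basal epidermis, had 4617 CPM in mutant and 2056 CPM in wildtype cells (log2 1.17), and its raw UMIs were 2131 and 736 (fold 2.44, 2.25 to 2.66). Its highest level elsewhere was 1332 CPM, in cluster 13. The rebuilt cells of at least 2000 UMIs held a median of 38.3 krt5 UMIs per 10000 in the mutant library (46 cells, range 0 to 244) and of 18.5 in the wildtype library (35 cells, 0 to 68.6), and the ranges overlapped. After thinning to 2000 UMIs, 38 of 46 mutant cells (82.6%) and 27 of 35 wildtype cells (77.1%) had a krt5 UMI, against 40 and 32 unthinned, so most cells of both libraries had the gene. Among cells most like cluster 4, the erythroid-like cluster, which should lack it, 4 of 1094 mutant and 0 of 531 wildtype cells did, at median depths before thinning of 22941 and 26490 UMIs, beside 9753.5 and 9945 in cluster 12. Of the 16 epidermal markers, 8 were at least 2-fold lower than elsewhere (7.8% of all features are), and krt5 alone was 2-fold higher. Krt4, for one, had 1 and 5 counts against up to 33804 CPM in cluster 13. At 0 were 7 of 16, near the share over all features. A single mutant cell of 3080 UMIs had 75 krt5 UMIs with 0 of col9a1b and cnmd, and it set the top of the mutant range at 244 per 10000. Whether the authors' column held that cell is not known.

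Sncga ran the other way, with 461 CPM in mutant and 1040 CPM in wildtype cells (log2 -1.16) and 193 and 388 raw UMIs (fold 0.420, 0.352 to 0.50). Its median was 2.12 UMIs per 10000 in mutant cells (range 0 to 31.2) and 9.82 in wildtype cells (0 to 53.5), and 20 of 46 thinned mutant cells had it against 22 of 35 wildtype cells (30 and 32 unthinned). None of the thinned erythroid-like cells did. With all kept matrix cells most like cluster 12 (at least 500 genes and at most 10% mitochondrial, 52 mutant and 48 wildtype cells, among them 3 and 8 of 2500 or more genes), both differences were larger, with log2 ratios of 1.32 for krt5 and -1.53 for sncga.

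**Figure D3:**
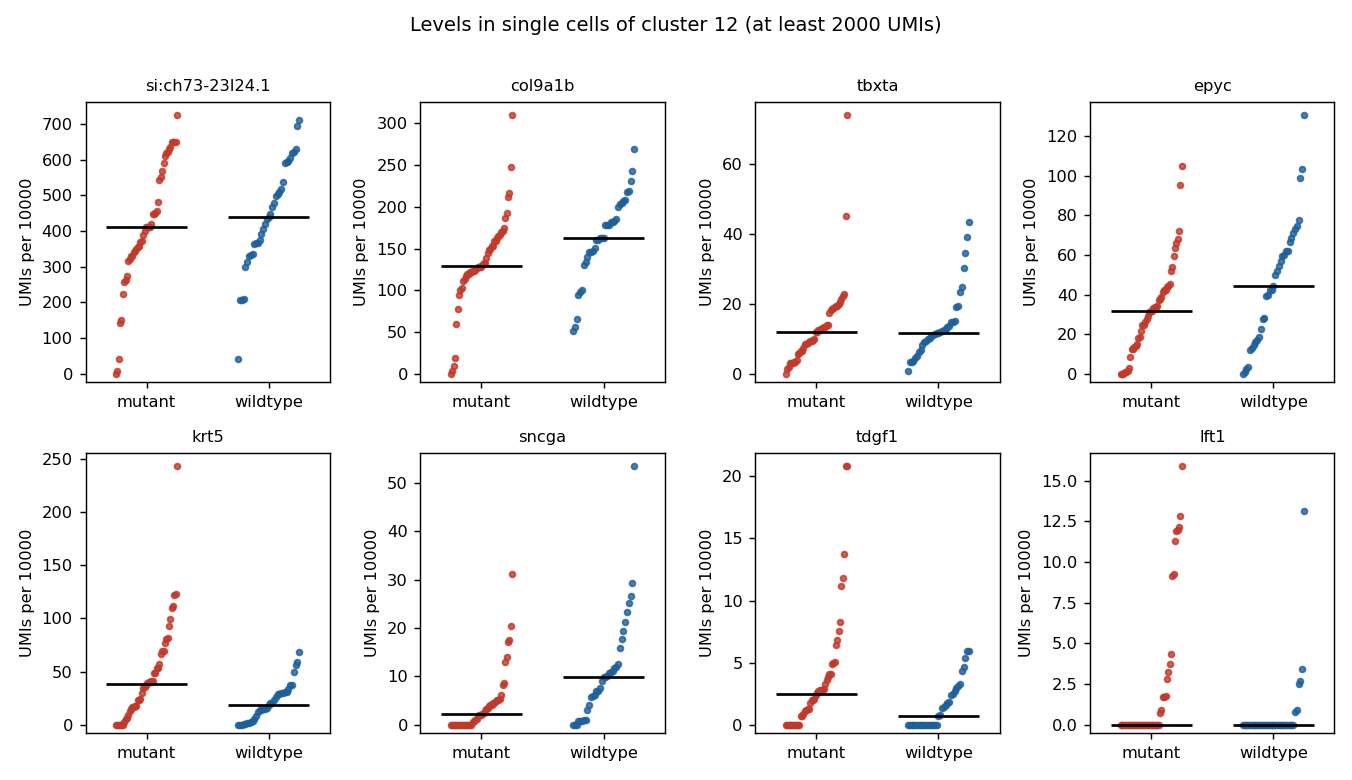
UMIs per 10000 of 8 genes in each rebuilt cluster 12 cell of at least 2000 UMIs, with 46 cells of the miR-223 mutant library (red) left of 35 cells of the wildtype library (blue), sorted by level, and a bar at the median. Si:ch73-23l24.1 and tbxta have like medians in both libraries, krt5 is higher in mutant cells (38.3 against 18.5), sncga is lower (2.12 against 9.82), and lft1 is at 0 in most cells of both.

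The 12 genes with the largest ratios toward the mutant, among those whose interval on the column counts excluded 1, were si:dkey-85k7.7, sptan1, slc39a13, lft1, tbx3b, lgals2a, pdia6, si:ch211-243g18.2, ankrd11, hspb8, fam107b and tdgf1. Their log2 ratios ran from 2.07 to 1.44, and all 12 had a raw interval above 1. The column counts are depth-adjusted, so the interval on them served to pick genes and does not measure counting error. Of the 12 toward the wildtype, 11 could be looked up in the matrices and 10 had a raw interval below 1. The raw UMIs come from largely the same cells as the columns by which these genes were picked. The raw intervals are therefore no second test.

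Lft1 encodes Lefty1, a secreted inhibitor of Nodal signals, and tdgf1 encodes the co-receptor through which Nodal acts in zebrafish. Lft1 had 229 CPM in mutant and 64.4 CPM in wildtype cells (log2 1.75), or 86 and 22 raw UMIs (fold 3.30, 2.05 to 5.54). It was found in 17 of 46 mutant cells and 6 of 35 wildtype cells of at least 2000 UMIs, and in 8 and 3 after thinning. At most 0.741 CPM was seen in any other cluster, and none of the thinned erythroid-like cells had it. Of its raw UMIs the top cell held 50% in the wildtype library (11 of 22) and 15.1% in the mutant library (13 of 86). Tdgf1 had 376 CPM in mutant and 135 CPM in wildtype cells (log2 1.44), was found in 35 of 46 and 18 of 35 cells (19 and 9 thinned), and reached at most 5.37 CPM elsewhere. In the kept matrix cells, which add the deeper ones, its log2 ratio was 0.65 and that of lft1 was 1.71.

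Tbx3b, a T-box transcription factor, had 93.9 CPM in mutant and 24.5 CPM in wildtype cells (log2 1.74), with 37 and 8 raw UMIs spread over 24 of 48 and 8 of 45 cells. These shares were not matched for depth, and 2 of the mutant and 10 of the wildtype cells had under 2000 UMIs. Tbx3b was near absent elsewhere, with at most 8.42 CPM. Slc39a13, a zinc transporter of the secretory pathway, had 130 and 33.7 CPM (log2 1.80), and pdia6, an enzyme that forms disulfide bonds, had 348 and 104 CPM (log2 1.69). Hspb8, a small heat shock protein, had 155 and 49.1 CPM, and sptan1, a spectrin of the membrane skeleton, had 91.1 and 18.4 CPM. Sptan1 had 79.9 and 77.4 CPM in the other clusters, so its mutant level was near theirs and its wildtype level, on 6 counts, was below. The galectin gene lgals2a had 121 CPM in mutant and 33.7 CPM in wildtype cells, but its log2 ratio was -0.02 in the kept matrix cells. Ankrd11, a chromatin protein, had 82.8 and 24.5 CPM (30 and 8 counts), against 65.9 and 75.5 CPM in the other clusters. Fam107b had 88.4 and 27.6 CPM (32 and 9 counts), against 138 and 150 CPM in the other clusters. Of sptan1, ankrd11 and fam107b only the mutant level reached 50 CPM.

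The lowest ratio belonged to histh1l, a linker histone, with 13.8 CPM in mutant and 638 CPM in wildtype cells (log2 -5.10) and with 4 and 191 raw UMIs (fold 0.0177, 0.00477 to 0.0460). The globin genes hbbe1.2 (130 CPM in mutant, 810 CPM in wildtype cells) and hbae1.1.1 (235 and 1012 CPM) followed. Globin genes are near-identical copies whose reads the counting could split, so single globins are uncertain. Lgals3b, a galectin, had 16.6 CPM in mutant and 110 CPM in wildtype cells, lipg, a lipase, had 46.9 and 144 CPM, and hbegfb, a ligand of the EGF receptor, had 41.4 and 117 CPM. Chac1, which breaks down glutathione, had 93.9 and 261 CPM, atp1a1b, a sodium pump subunit, had 33.1 and 82.8 CPM, and ptgr1, a prostaglandin reductase, had 41.4 and 120 CPM. Myl9b, rtf1 and fabp11a completed the 12. Fabp11a had 24.9 and 89.0 CPM in the table but 5 and 4 raw UMIs in the rebuilt cells (fold 1.06, 0.227 to 5.32), too few to show a difference.

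**Figure D4:**
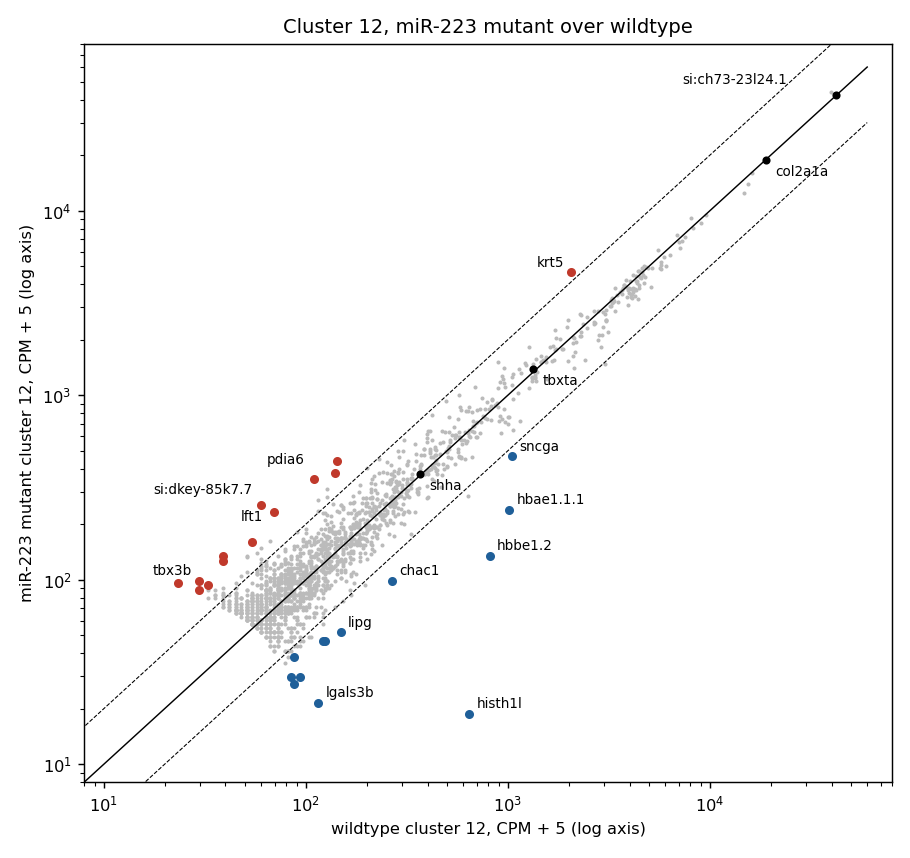
Level in miR-223 mutant cluster 12 cells (vertical) against wildtype cluster 12 cells (horizontal), each as CPM + 5 on log axes, for 1619 features of a mean of at least 50 CPM (grey), with equality as a solid and 2-fold as dashed lines. The 12 highest ratios and krt5 are red, the 12 lowest and sncga are blue, and the leading genes in black (si:ch73-23l24.1, col2a1a, tbxta, shha) lie on the line of equality.

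Several of these differences were not limited to cluster 12. The same genes were read in the 13 other clusters with at least 30 cells in both libraries, which come from the same 2 libraries. Histh1l and hbbe1.2 were at least 2-fold lower in mutant cells in 13 of 13, with medians over those clusters of -5.18 and -1.79 beside -5.10 and -2.60 in cluster 12. Hbae1.1.1 passed in 11, lgals3b in 10, slc39a13 in 11, si:dkey-85k7.7 in 10 and pdia6 in 6 of 13 in the direction seen in cluster 12. Lft1 passed in 0, tbx3b in 0, sptan1 in 0, tdgf1 in 1 and krt5 in 2 of 13, and for lft1, tbx3b and tdgf1 the other clusters held too few counts to show a difference. Krt5 had 19 counts or fewer in each library of every other cluster but 7 and 13. In cluster 7 it had 106 counts in mutant and 3 in wildtype cells (log2 3.51), and in cluster 13 it had 348 and 423 (log2 -0.51), so these clusters went opposite ways. No difference between the clusters was tested.

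**Figure D5:**
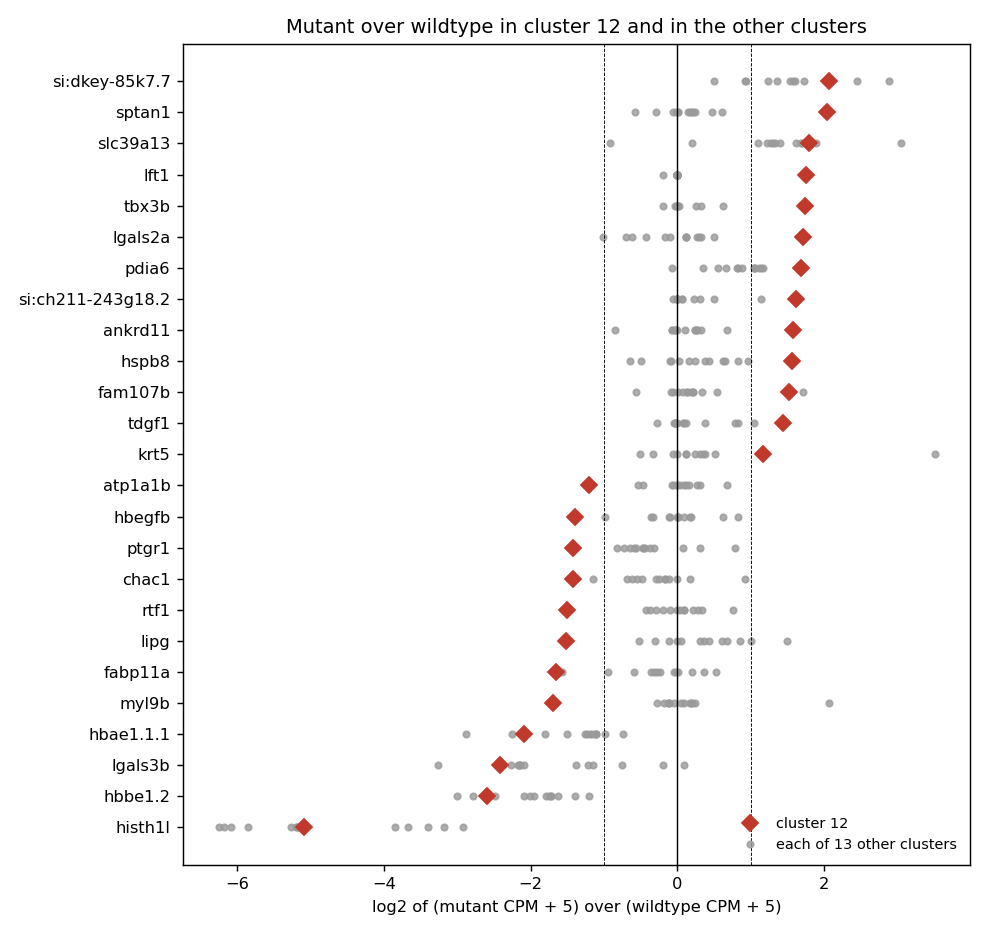
Log2 of (mutant CPM + 5) over (wildtype CPM + 5) for the 24 named genes and krt5 in cluster 12 (red diamonds) and in each of 13 other clusters (grey points), with 2-fold as dashed lines. For histh1l and hbbe1.2 the grey points lie on the same side past the dashed line. For lft1, tbx3b and sptan1 they gather near 0 while cluster 12 lies at 1.75, 1.74 and 2.04. The mutant level of sptan1 in cluster 12 (91.1 CPM) was near that of the pooled other clusters (79.9 CPM). Its wildtype level of 18.4 CPM rested on 6 counts. Outside cluster 12, lft1 and tbx3b had too few counts to show a difference.

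Globin levels differed between the columns of cluster 12 beyond hbbe1.2. All 8 erythroid markers of at least 50 CPM were lower in mutant cells of the table (median log2 -0.62), among them hbae3 with 1809 CPM in mutant and 2896 CPM in wildtype cells. In raw UMIs per 10000 of cells with at least 2000 UMIs, however, the medians of hbae3 were 18.2 in mutant and 13.7 in wildtype cells and those of hbbe3 were 21.8 and 15.5, while hbbe1.2 stayed lower at 1.02 and 4.06. The shallow wildtype cells, which the table weighs more, moved with this difference, and their part in it was not tested. Summed over the 15 erythroid markers, the column held 8571 CPM in mutant and 14331 CPM in wildtype cells, against up to 430550 CPM in cluster 4, highest in these markers.

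The collagen folding and secretion genes leaned toward the mutant. Of 51 members that averaged 50 CPM or more, 41 had a ratio above 0 (80.4%, against 56.1% of all features), 1 was past 2-fold higher (pdia6) and 0 past 2-fold lower. The median log2 ratio was 0.20, and 0.09 with TMM. Plod3 had 469 raw UMIs in mutant and 238 in wildtype cells (fold 1.66, 1.42 to 1.95), and fkbp10b, another member of the list, had 190 and 78 (fold 2.06, 1.57 to 2.71). In raw UMIs 16 of the 51 had an interval above 1 and 1, xbp1, had one below. The share of all features with such intervals was not counted, so these counts too are no result about the list. Xbp1, a transcription factor of secretory cells, had 710 CPM in mutant and 963 CPM in wildtype cells.

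Several smaller lists had medians as large or larger, over fewer members. The N-glycan synthesis genes had a median log2 ratio of 0.20 over 14 members (78.6% above 0), with rpn1 (367 CPM in mutant, 261 CPM in wildtype cells) the farthest up and dad1 the farthest down at -0.13. The vacuolated and caveolae genes had 0.25 over 12 members (58.3% above 0), the transcription factors 0.20 over 7 (71.4%), the cartilage and sclerotome genes 0.32 over 6 (83.3%), the Hedgehog and other signals 0.03 over 5, and the floor plate and hypochord genes 0.16 over 2. Some lists share members, such as sox6 and sox9b in the transcription factor and cartilage lists. Shha was in both the signal and the floor plate list, so these medians are not independent. In the kept matrix cells the signals and the floor plate genes turned to -0.19 and -0.14, and the vacuolated and caveolae genes and the transcription factors were at -0.012 and 0.013. The cell cycle genes had 0.35 over 9 members (66.7% above 0), which turned to -0.29 in the kept matrix cells, and the replication gene mcm4 had 77.3 CPM in mutant and 30.7 CPM in wildtype cells. The heat shock and immediate early genes had -0.06 over 17, and hsp70l, a heat shock protein, had 279 and 629 CPM. Its wildtype raw UMIs were 244, of which the top cell held 27.9%. The list of linker histones and genes named for endothelial cells had 0.33 over 6, with 2 past 2-fold on each side.

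Single cells showed a range of levels within the cluster. Across cells of at least 2000 UMIs, levels of epyc went with those of krt5 (Spearman 0.66 in 46 mutant and 0.60 in 35 wildtype cells) and of si:ch73-23l24.1 (0.71 and 0.60), and against those of the galectin gene lgals1l1 (-0.33 and -0.68). Col9a1b and cnmd went together (0.76 and 0.53), as did cnmd and epyc (0.72 and 0.54) and si:ch73-23l24.1 and col9a1b (0.46 and 0.42). The other pairs looked at were weaker in the mutant cells or changed sign. Tbxta with lgals1l1 gave 0.12 and -0.30, and krt5 with sncga gave 0.17 and -0.32. Epyc with tbxta gave 0.06 and 0.30, epyc with tdgf1 -0.15 and -0.40, and krt5 with tdgf1 -0.01 and -0.38. These are descriptions, since the cells of a library share its preparation and the levels share each cell's depth. Epyc and krt5 were each at 0 in some cells and reached 105 and 244 UMIs per 10000 in mutant and 131 and 68.6 in wildtype cells. The krt5 maximum of 244 was the mutant cell of 3080 UMIs, which had 0 of col9a1b, cnmd and epyc.

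A few cells, picked after their values were seen, lay apart from most cells of the cluster in some genes. A mutant cell of 9854 UMIs had 73 UMIs of tbxta and 52 of lgals1l1 with 9 of col9a1b, 7 of si:ch73-23l24.1, 0 of krt5 and 12 of lft1. A second mutant cell, of 10880 UMIs, had 21 of tbxta, 13 of lft1, 15 of tdgf1 and 10 of the Wnt ligand wnt11, with 3 of col9a1b and 0 of epyc and krt5. Both were high in regulators and low in sheath genes, and they held 12 and 13 of the 86 lft1 UMIs of the mutant cells. A wildtype cell of 14549 UMIs had 37 UMIs of slc38a8b, an amino acid transporter, and 20 of cav3, with 2 of krt8 and 0 of epyc and krt5. It did have other sheath genes, with 75 UMIs of col9a1b, 130 of col2a1a, 69 of cnmd and 98 of cmn. It held all slc38a8b UMIs of the 45 rebuilt wildtype cells, where the mutant cells had 1, so the table's 2.76 CPM in mutant and 85.9 CPM in wildtype cells for that gene rest on 1 cell.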

How the data were processed

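The authors deposited droplet counts for both libraries as matrices (software version 3.0.2, per the file headers) and a table of mean expression signal per cell for 15 clusters in each genotype, whose making is not given in the sources used here. The submitters' processing notes name bcl2fastq, Cell Ranger, Seurat and GRCz11. Each column of the authors' table, a signal that fits whole counts within 1e-06 once multiplied by its cell number, was turned back into sums over 17822 features; these sums act as depth-adjusted counts.

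Ratios used CPM + 5, 4-fold over the pooled other clusters and 2-fold between genotypes among features of a mean of at least 50 CPM. Named were the 25 features highest over the rest (at least 100 CPM in both libraries), the 12 highest and 12 lowest mutant over wildtype ratios whose exact conditional 95% interval excluded 1, and from each list the 4 most abundant and the 2 most extreme each way, with fixed lineage genes and reporters; further list members and single cells were picked after their values were seen. The interval for picking genes was computed on the depth-adjusted counts, so it does not measure counting error. The members and lists were chosen with earlier results of these data known. Cells were matched to clusters by likeness of profile over 17292 genes, and no doublet caller was run. With 1 library per genotype nothing was tested. The counts per cell were thinned to 2000 UMIs for shares of cells. Python 3.11.15, numpy 2.4.6, scipy 1.17.1, pandas 2.3.3 and matplotlib 3.10.9 were used, and the scripts were tested on simulated data.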

Additional observations from a re-analysis of the deposited data

Results flagged for a closer look

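Signals outside the main comparison were present in 2 places. The sort reporter mCherry-Hras, which is no zebrafish gene, had 16 counts in mutant and 6 in wildtype cells of cluster 12. Among matrix cells most like cluster 12 but with 2500 or more genes, 1 wildtype cell of 20928 UMIs held 201 UMIs of ngs and 210 of cav3, with 79 of slc38a8b, 43 of tdgf1, 1 of epyc and 0 of krt5. That cell also had 269 UMIs of col9a1b, 245 of col2a1a and 113 of cmn. The 3 mutant cells most like cluster 12 with 2500 or more genes had 0 ngs UMIs. Both were noticed after the values were seen.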

How the results depend on the processing

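No paired analysis was possible because each genotype has 1 library, and for the same reason no replicate could be left out. Of 189 values of named genes under alternatives, 181 kept their side and size, 5 moved and 3 reversed; of 142 shares, counts and list values, 115 were kept, 26 moved and 1 reversed. The cause of these changes was not tested, except that a filter or pseudocount changes by construction how many features pass. The rebuilt cells were chosen after seeing the data. Against 40 higher and 28 lower features, a pseudocount of 20 CPM gave 23 and 14, a minimum of 10 CPM gave 336 and 202, scaling without globin, ribosomal protein and mitochondrial genes gave 75 and 72, and the kept matrix cells gave 24 higher. Log2 counts per cell, mutant over wildtype, was 0.09 in the table, whose counts are depth-adjusted and so do not measure depth. In raw UMIs per cell it was -0.19 in the kept matrix cells and 0.15 in the rebuilt cells. List medians of mutant over wildtype moved to 0.087 for collagen folding with TMM, and to 0.013 for floor plate without those abundant genes. In the kept matrix cells they were -0.14 for floor plate, -0.19 for Hedgehog signals and -0.29 for cell cycle. For heat shock genes they were -0.24 in rebuilt cells and -0.26 in those with at least 500 genes. The log2 ratio of lgals2a reversed to -0.022 in the kept matrix cells, and that of fabp11a to 0.055 in rebuilt cells and 0.31 in those with at least 500 genes. Against 297 features over the other clusters, a pseudocount of 1 CPM gave 469, one of 20 CPM gave 161 and the highest other cluster gave 88. With 1 CPM the list medians over the rest were -0.34 for floor plate and -0.44 for Hedgehog signals. Over the highest other cluster they were -0.21 for transcription factors, -2.81 for vacuolated cells, -1.53 for cartilage, -1.67 for floor plate, 0.12 for collagen folding and -1.61 for Hedgehog signals. Depth limits genes under about 3 UMIs, which is 7.28 CPM in mutant and 8.62 CPM in wildtype cells.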
